A study of Mus musculus with 33 samples.

Results

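Monomethylation of lysine 4 on histone H3 (H3K4me1) was compared between ganglionic eminences that lack the homeodomain factors DLX1 and DLX2 (KO) and wild-type ganglionic eminences (WT), from 1 peak list per genotype. These 2 libraries are 2 of the 33 samples of the series. All peaks on chromosomes 1 to 19 were taken, 228261 in KO and 222443 in WT, of 1690607 peaks on these chromosomes in the e13.5 peak lists of histone marks and DLX factors. The KO embryos were Dlx1/2-/- and the others were labelled wild type, both of the CD1 strain at embryonic age e13.5. ChIP was native, on mono- and di-nucleosomes cut with micrococcal nuclease, and gave 1 library per genotype. The tissue was dissected basal ganglia, with progenitor and mantle zones of the lateral, medial and caudal eminences together, so fewer cells of a type and less mark per cell cannot be told apart. The same series profiled H3K27ac, H3K4me3 and H3K27me3 in both genotypes, bound DLX1, DLX2 and DLX5 in WT tissue, and RNA in 4 KO and 4 WT samples. DLX ChIP used crosslinked and sonicated WT tissue.

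H3K4me1 is deposited mainly by the KMT2C and KMT2D methyltransferases and marks enhancers, the distal elements that raise transcription of nearby genes, whether these are active or only primed. H3K27ac is added where an enhancer or promoter is active, while H3K4me3 marks promoters, where H3K4me1 lies on the flanks. DLX1, DLX2 and DLX5 are related transcription factors that bind similar sequences in the ventral forebrain and are needed for the birth, migration and differentiation of GABAergic neurons.

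The knockout was visible in the RNA. Dlx2, one of the deleted genes, had 1.07, 1.02, 1.47 and 1.501 counts scaled to library size (CPM) in the KO samples, against 18.7, 15.3, 21.8 and 29.0 CPM in the WT samples. Dlx1 had between 21.5 and 26.1 CPM in the KO samples and between 119 and 129 CPM in the WT samples. Neither gene's groups overlapped, with a log2 change of −4.11 ± 0.24 for Dlx2 and −2.403 ± 0.092 for Dlx1 (SE; edgeR quasi-likelihood adjusted p = 9.88e-06 and 1.20e-06).

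Both H3K4me1 lists described the same kind of landscape, of many narrow and weak peaks and fewer broad and strong ones. KO peaks covered 412.3 Mb with a median width of 1028 bp, and WT peaks covered 392.5 Mb with a median width of 1014 bp. The authors' fold enrichment over input had a median of 2.28 in the KO list and 2.396 in the WT list. The lists reach down to a −log10 q of 0.026 in KO and 0.036 in WT, and their lowest −log10 p is 1.01 in KO and 1.06 in WT, so they hold peaks far below the usual thresholds. The smallest fold enrichment in a list is 1.51 for KO and 1.64 for WT. At a −log10 q of at least 5 there were 45656 KO peaks and 41625 WT peaks. With 1 library per genotype, differences below compare these libraries and have no replicate check and no p-value, and intervals on shares (95%, Wilson) and medians cover counting error or the spread over regions only.

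Most H3K4me1 regions were listed in both genotypes, and those of one genotype were mostly weak and narrow. Peaks that overlapped by at least 1 base were joined into 245918 regions, of which 184092 held peaks of both genotypes, 35775 were KO-only (14.5%, background for the counts below) and 26051 were WT-only (10.6%). The median width of KO-only regions was 369 bp and that of WT-only regions 373 bp, against 1495 bp for shared regions. The median fold enrichment was 1.73 in KO-only and 1.86 in WT-only regions. Both medians lay near the lowest fold of their list. When KO peaks under the lowest WT fold were left out, 10.4% of regions were KO-only and 15.2% were WT-only, which turns round the order of the shares.

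Weak regions were far more often lacking in the other genotype than strong ones. Among regions whose strongest peak had a −log10 q under 0.5, 46.4% of 45994 KO regions had no WT peak and 36.3% of 43210 WT regions had no KO peak. Between 5 and 10, 3 of 34098 KO regions had no WT peak (0.0088%, interval 0.0030 to 0.026) and 14 of 32065 WT regions had no KO peak (0.044%, interval 0.026 to 0.073). At 10 or more the other genotype had a peak in all of 10731 KO and 8370 WT regions, which allows shares of up to 0.036% and 0.046%. H3K4me1 regions of this strength were thus listed in both genotypes throughout, where a peak of any strength in the other list counts. That list was not cut, so a fall of the share with strength is built into this count in part. With both lists cut at a −log10 q of at least 5, 18.7% of regions were KO-only and 9.87% WT-only.

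**Figure D1:**
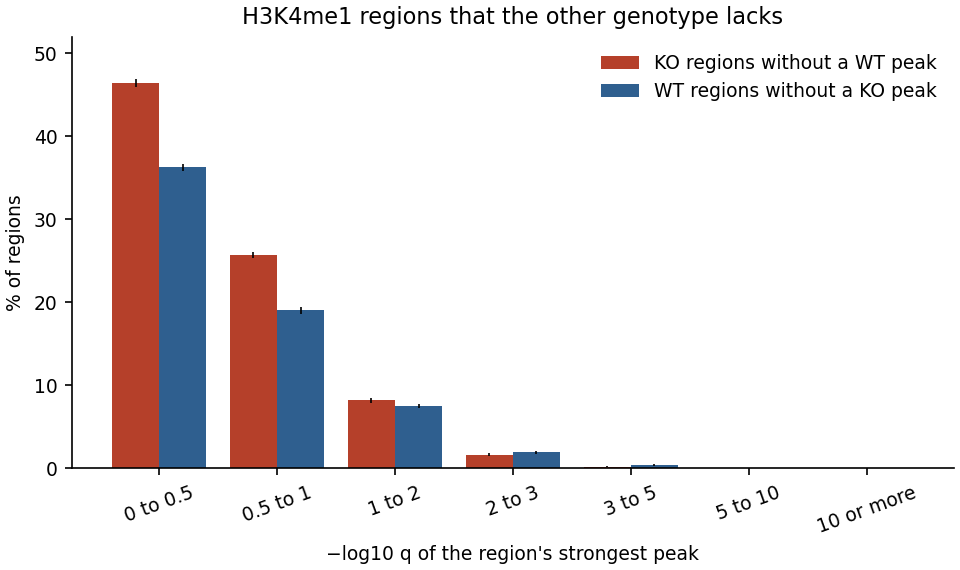
Share of H3K4me1 regions that the other genotype lacks, in % (y axis), by the −log10 q of the region's strongest peak (x axis), with KO regions in red left of WT regions in blue. Peaks of the other genotype count at any strength. Bars are shares in 1 library per genotype with 95% Wilson intervals; the shares drop from 46.4% of KO and 36.3% of WT regions in the weakest class to 0 in the strongest.

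The strongest KO-only region was chr2:104512345-104513456 (mm9, as all coordinates here), with a fold enrichment of 3.71 and a −log10 q of 6.43 in KO. It had an H3K27ac peak of fold 1.87 in KO as well, with no H3K27ac peak in WT and no DLX peak. The other 4 that lead the KO-only list lie at chr1:38226745-38229810, chr2:17430173-17430529, chr15:54928840-54929096 and chr2:41727739-41728006, with KO folds of 3.43 to 3.62, and none of the 5 had a DLX peak. The 5 strongest WT-only regions had WT folds of 3.94 to 4.19. Among them chr7:82568664-82569759 held a DLX2 peak of fold 8.89, and chr2:77813407-77814483 held peaks of DLX1, DLX2 and DLX5 with folds of 7.14, 10.1 and 4.90. At chr10:79547174-79548366, chr13:55958577-55959425 and chr2:17794956-17795437 no DLX peak was listed.

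The longest runs of neighbouring one-genotype regions differed in DLX peaks. With at least 1 peak of −log10 q 5 or more, the longest KO-only run had 3 regions over 12033 bp at chr1:38226745-38238777, and none held a DLX peak. The longest WT-only runs had 6 regions each, at chr2:77712771-77727665 and chr2:77809633-77832826, and all 12 of these regions held a DLX peak. Another WT-only run of 6 regions, with weaker peaks, lay at chr6:6751826-6763885 and held no DLX peak. Of any strength, the longest KO-only runs had 7 regions each, at chr3:125503525-125565216, chr10:72971752-73123413 and chr19:32019591-32050744, again with no DLX peak.

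At the shared regions H3K4me1 was close to equal in the genotypes. The median fold enrichment was 2.50 in KO and 2.54 in WT, a median log2 ratio of −0.016 with quartiles of −0.16 and 0.12. Across the 184092 regions the log2 enrichments of the libraries had a Pearson correlation of 0.889, which describes regions that share these 2 libraries and is no test. Past 1.5-fold, 790 regions (0.429%) were higher in KO and 2381 (1.29%) lower. The regions past 1.5-fold lower had a median fold of 1.76 in KO and 2.90 in WT, and those higher had 3.15 in KO and 1.98 in WT, so both were mostly weak in one list.

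The ratio shifted with the level. Shared regions were split into 4 equal classes of mean enrichment, called levels 1 (lowest) to 4 (highest). The mean is that of the KO and WT log2 enrichment, so a region with a lower KO value also has a lower level. The median log2 ratio was −0.088, −0.037, 0.0094 and 0.032 at levels 1 to 4. Level 1 spans mean folds of 1.57 to 2.04, close to the lowest folds of the lists, 1.51 in KO and 1.64 in WT. How far these unequal floors set the shift was not tested. The sign of the overall median depends on which peaks are kept: with peaks of −log10 q of at least 5 only, it was 0.019. Of 35568 regions with such a peak in both genotypes, 5 were at least 1.5-fold higher in KO and 13 lower. Covered length was slightly larger in KO, with a median of 1286 bp in KO and 1212 bp in WT and a median log2 ratio of 0.058. In KO, 14703 regions (7.99%) had at least double the WT length, and 9761 (5.30%) had at most 0.5 of it. Width and enrichment ratios hardly moved together across regions, with a Pearson correlation of 0.0076 over the 184092 regions.

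The regions past 1.5-fold differed in what else they carried. A DLX peak lay in 9 of the 790 higher regions (1.14%) and in 260 of the 2381 lower ones (10.9%), against 7.16% of the 180921 in between. WT H3K27ac or H3K4me3 lay in 1.90% of the higher and 1.55% of the lower regions, against 14.04% in between. For the ratios of the other marks, peaks of any strength were taken, not only those strong enough to count as a mark. H3K4me3, where both genotypes had such a peak, had a median log2 KO over WT ratio of 0.012 at 104 higher and −0.27 at 205 lower regions, against 0.0053 in between. For H3K27ac these medians were −0.046 at 484 higher and −0.11 at 1562 lower regions, against −0.058 in between. Where H3K4me1 was lower in KO, the H3K4me3 ratio was thus lower at the 205 of 2381 regions that had it in both genotypes. The H3K27ac ratio was lower there too, by less. For H3K27me3 the medians were −0.064, −0.075 and −0.092 in the higher, lower and other regions. No chromosome stood apart, with median H3K4me1 ratios between −0.024 and −0.011 on chromosomes 1 to 19.

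**Figure D2:**
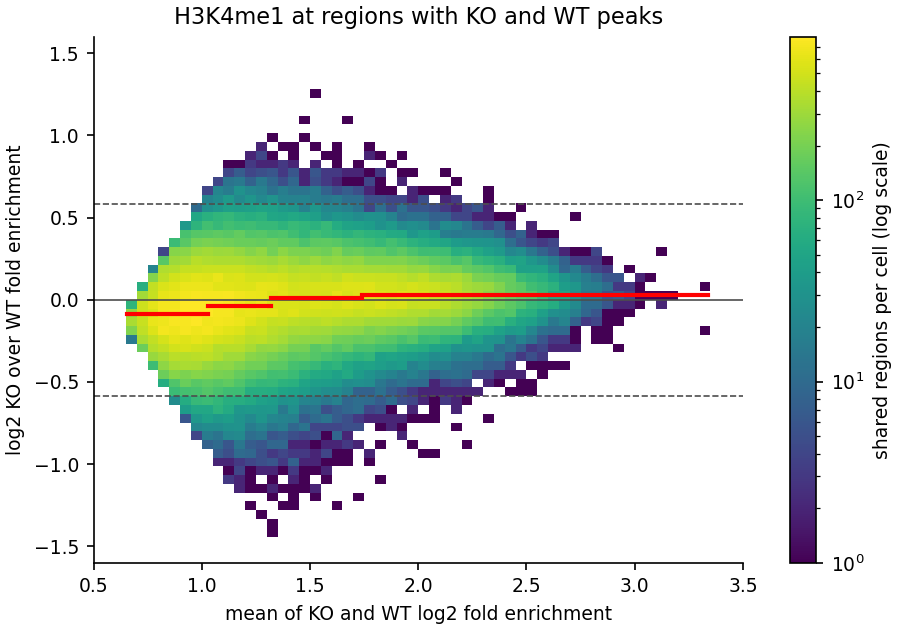
Log2 KO over WT fold enrichment (y axis) against the mean of the KO and WT log2 fold enrichment (x axis) at 184092 shared H3K4me1 regions, as counts per cell on a log colour scale. Red lines are the medians of 4 equal classes of mean enrichment, from −0.088 in the lowest to 0.032 in the highest, and dashed lines mark 1.5-fold.

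Among shared regions strong in both genotypes, the highest ratio was at chr9:97011829-97012781, with a fold enrichment of 5.62 in KO and 3.67 in WT, inside WT peaks of H3K27ac and H3K4me3. The 5 highest had KO folds of 5.27 to 6.12 and WT folds of 3.52 to 4.04, and none held a DLX peak. The lowest ratio was at chr4:134195579-134198975, with 3.49 in KO and 6.31 in WT, where DLX2 had a peak of fold 12.2. Next came chr7:70654561-70655455 with 3.46 in KO and 5.91 in WT and a DLX2 peak of fold 6.59. The other 3 of the 5 lowest, at chr17:35457236-35458407, chr14:68158877-68160937 and chr2:151688115-151689269, had KO folds of 3.55 to 3.95, WT folds of 5.62 to 6.39 and no DLX peak.

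Regions that carried WT H3K27ac or H3K4me3 were past 1.5-fold less often than unmarked ones. Marked regions, 25455 in all, were stronger, with a median H3K4me1 fold of 3.98 in KO and 3.99 in WT, against 2.34 in KO and 2.399 in WT at the 158637 unmarked regions. Past 1.5-fold, 0.059% of marked regions were higher in KO and 0.15% lower, against 0.49% and 1.48% of unmarked regions. One-genotype regions were rare with H3K4me3. With both marks 19 of 10733 regions were KO-only (0.18%) and 7 WT-only (0.065%), and with H3K4me3 alone 0.51% were KO-only and 0.46% WT-only. With H3K27ac alone 120 of 1059 were KO-only (11.3%) and 100 WT-only (9.44%), near the background, and with neither mark 16.2% were KO-only and 11.8% WT-only. The 839 shared regions with H3K27ac alone had a median log2 ratio of −0.0045.

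The direction of the small difference between marked and unmarked regions depended on what was matched. The median log2 ratio was 0.0043 with a mark and −0.022 without, a difference of 0.026. Within levels of mean enrichment the difference was −0.041, the opposite sign, and within classes of region width it was 0.00046. At level 4 the medians were 0.0095 with a mark and 0.057 without. Distance from a WT H3K4me3 peak, used here without a promoter annotation, is no separate comparison, since regions that overlap such a peak are among the marked ones. The 24616 shared regions that overlap a WT H3K4me3 peak had a median log2 ratio of 0.0045 and 0.13% past 1.5-fold lower, against −0.020 and 1.57% in the 64560 regions more than 50 kb away.

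A DLX peak was less frequent in KO-only than in WT-only regions, and its share in both depended on the strength of the peaks kept. A peak of DLX1, DLX2 or DLX5 lay in 50 of 35775 KO-only regions (0.14%, interval 0.11 to 0.18) and in 297 of 26051 WT-only regions (1.14%, interval 1.02 to 1.28), against 13225 of 184092 shared regions (7.18%). Among the one-genotype regions with a −log10 q of at least 2, the counts were 3 of 421 KO-only (0.71%, interval 0.24 to 2.07) and 56 of 568 WT-only (9.86%, interval 7.67 to 12.6). With H3K4me1 peaks of −log10 q of at least 5 alone, the shares were 7.10% of KO-only and 15.0% of WT-only regions. Read by the number of factors, KO-only regions made up 15.4% of regions without a DLX peak and 0.40%, 0.31% and 0.33% of those with 1, 2 and 3 factors. WT-only regions made up 11.1%, 2.02%, 2.31% and 2.79%. Regions with a DLX peak, which are also stronger, thus lay below the background of 14.5% and 10.6% in both directions, and the WT-only share was the larger in each class.

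At shared regions, the H3K4me1 ratio of DLX-bound regions lay below that of unbound ones where enrichment was low or WT marks were absent, and close to it where enrichment was high. All regions with at least 1 DLX factor had a median fold of 3.96 in KO and 3.98 in WT, and a median log2 ratio of −0.0011, against −0.018 without a DLX peak, before matching on level. With H3K4me1 peaks of −log10 q of at least 2 the bound minus unbound difference had the other sign, −0.0084. At level 1 the 258 DLX-bound regions had a median fold of 1.72 in KO and 2.06 in WT, a log2 ratio of −0.27, against −0.088 at unbound regions. At level 2 it was −0.22 against −0.035, and at level 3 −0.068 against 0.014. At level 4, which held 9585 of the 13225 bound regions, the medians were 0.021 and 0.036. The level itself includes the KO enrichment, so a bound region that is lower in KO is also moved towards a lower level. How much of the difference at low levels, and of the differences within levels below, comes with this was not tested. DLX peaks were called in WT tissue only, and whether this bears on the direction was not tested.

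Without matching, regions with 3 factors differed from unbound ones by 0.0057, with an interval of −0.0043 to 0.016 that included 0. Matched on level, the difference was negative and largest with all 3 factors, while the intervals for 1 and 2 factors overlapped. Within levels of mean enrichment, the median log2 ratio of regions with 1, 2 and 3 factors differed from that of unbound regions by −0.038, −0.042 and −0.059, with intervals of −0.043 to −0.034, −0.049 to −0.035 and −0.069 to −0.049. This matched difference at 3 factors lay between −0.080 and −0.012 under all its alternatives, with the smallest value for peaks of −log10 q of at least 5. The order by number was not the same at each level, with medians of −0.28, −0.27 and −0.15 for 1, 2 and 3 factors at level 1 and of −0.056, −0.066 and −0.17 at level 3. Matched on region width in place of enrichment, the differences were −0.012, −0.018 and −0.024. Covered length moved with it: within levels of enrichment the log2 length ratio differed by −0.065, −0.088 and −0.13 for 1, 2 and 3 factors. The share past 1.5-fold lower in KO, beside the background of 1.29%, was 1.24%, 1.93%, 1.88% and 2.26% at 0, 1, 2 and 3 factors, and the share higher, beside 0.429%, was 0.46%, 0.058%, 0.10% and 0.056%.

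Marks separated the DLX-bound regions. With WT H3K27ac or H3K4me3, regions with 1, 2 and 3 factors differed from unbound regions of like enrichment by 0.020, 0.020 and 0.0077, and the interval at 3 factors, −0.0013 to 0.017, included 0. With neither mark the differences were −0.083, −0.093 and −0.12, and −0.043, −0.057 and −0.064 when matched on region width in place of enrichment. Unmarked regions with 3 factors, 951 in all, had a median fold of 3.68 in KO and 3.83 in WT and a median covered length of 3214 bp in KO and 3484 bp in WT. Of these, 38 (3.996%) were at least 1.5-fold lower in KO and 1 was higher (0.11%), against 1.38% and 0.51% of 151409 unmarked unbound regions. Of the 821 marked regions with 3 factors, 2 were past 1.5-fold lower.

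**Figure D3:**
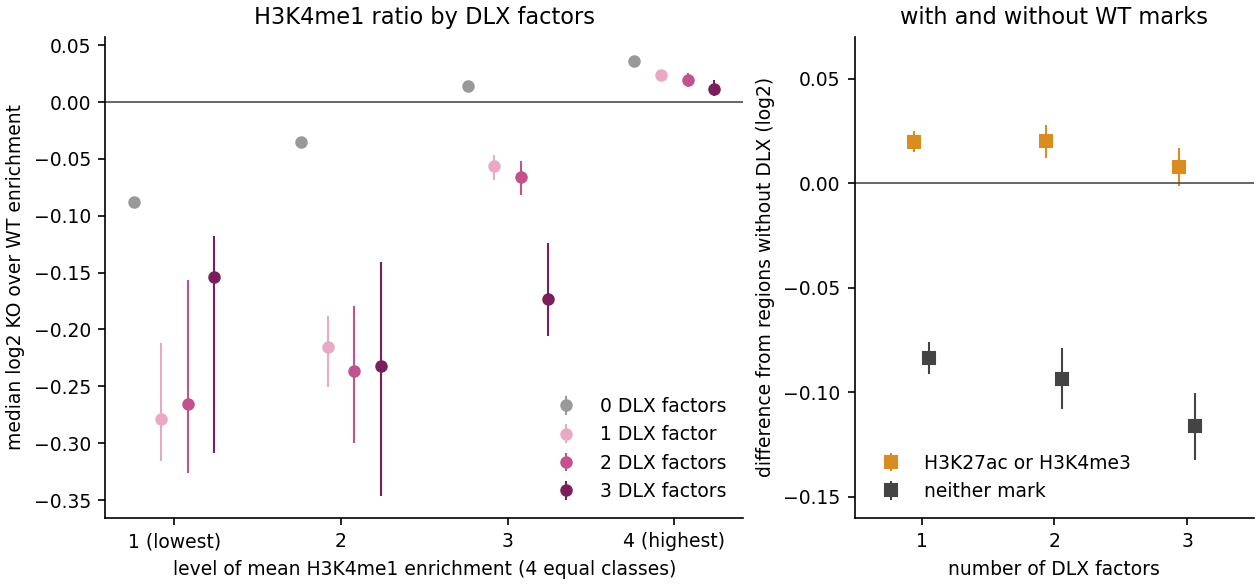
Left, median log2 KO over WT H3K4me1 enrichment (y axis) of shared regions with 0, 1, 2 or 3 DLX factors, by level of mean enrichment, 1 lowest to 4 highest (x axis); right, the difference from regions without a DLX peak within those levels, for regions with WT H3K27ac or H3K4me3 and with neither. Bars are 95% intervals over regions of 1 library per genotype; bound regions as a whole lie below unbound ones at each level, and on the right the marked regions lie at 0.0077 to 0.020 and the unmarked ones at −0.083 to −0.12.

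The combinations of factors had different medians at low enrichment. At levels 1 and 2 of enrichment, 556 regions with DLX2 alone had a median log2 ratio of −0.27, and 82.6% of them were lower in KO. The 132 regions with DLX1 alone had −0.088, and 62.9% were lower, near the −0.063 and 61.3% of 91026 regions with no DLX peak. Regions with all 3 factors had −0.21, with 82.7% of 110 lower. DLX5 was alone in 133 shared regions, of which 7 were at these levels, too few to compare. Over all levels the medians were close, 0.00038 at 7705 regions with DLX2 alone and 0.0023 at 747 with DLX1 alone. Past 1.5-fold lower in KO were 2.06% and 0.94% of them, beside 1.24% without a DLX peak. The DLX2 list is the longest of the 3, with 16885 peaks beside 8341 for DLX1 and 2913 for DLX5, and whether list length or antibody bears on this was not tested.

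The 5 shared regions with all 3 factors and the lowest ratio had neither WT mark. At chr11:87843608-87846833 the H3K4me1 fold was 1.55 in KO and 4.04 in WT, and 943 bp were covered in KO against 3226 bp in WT. DLX1, DLX2 and DLX5 had folds of 7.98, 17.1 and 7.66 there. At chr7:114671293-114672586 it was 1.79 in KO and 3.698 in WT, at chr3:32822178-32824530 it was 2.16 in KO and 4.14 in WT, at chr2:48105353-48106338 it was 1.51 in KO and 2.85 in WT, and at chr17:56131222-56132809 it was 3.11 in KO and 5.83 in WT. Covered length was shorter in KO at all 5. H3K4me3 peaks of fold 2.07 to 3.64 were listed at all 5 in WT, below the strength used to call the mark, and in KO at chr3:32822178-32824530 alone with 1.66.

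The 5 with the highest ratio among those with all 3 factors were less extreme. At chr12:65299033-65300235 the fold was 2.997 in KO and 1.97 in WT, and it was the only one of the 1772 past 1.5-fold higher in KO. The other 4, at chr3:8245818-8246479, chr16:40294391-40295853, chr19:58372882-58376113 and chr2:114881638-114885307, had KO folds of 2.401 to 5.17 and WT folds of 1.76 to 3.96.

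The authors also deposited lists of H3K4me1 regions from their own comparison of the genotypes, with 1888 regions in condition 2, 2916 in condition 1 and 117949 in common. Of the condition 2 regions in the authors' deposited table, 8.90% were stronger in the WT peak list, against 90.7% of condition 1, so condition 2 was read as KO-higher and condition 1 as WT-higher. The KO-higher list is 1.54% and the WT-higher list 2.38% of all listed regions. The lists come from the same libraries and are not a second measurement. Of the KO-higher regions in the authors' deposited table, 29 held a DLX peak (1.54%, interval 1.07 to 2.20) and 673 WT-higher regions did (23.1%, interval 21.6 to 24.6), against 9.52% of common regions. Peaks of all 3 factors lay in 0.16% of KO-higher, 3.64% of WT-higher and 1.29% of common regions.

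Seen from the DLX sites, the share in the authors' WT-higher list was larger with more factors and stronger binding. The 3 factors' peaks joined into 19758 sites, of which 81.8% lay in a shared H3K4me1 region, 0.25% in a KO-only and 1.503% in a WT-only one. Of sites with 1, 2 and 3 factors, 0.15%, 0.10% and 0.19% lay in KO-higher regions and 2.60%, 4.31% and 6.91% in WT-higher regions of the authors' deposited table. In 3 equal classes of the highest DLX fold at a site, in rising order, 0.17%, 0.13% and 0.14% lay in KO-higher and 1.59%, 3.07% and 5.45% in WT-higher regions. Most bound sites, 63.7%, lay in a region of the common list. The common share was also larger with more factors, at 61.5%, 64.2% and 77.5% for 1, 2 and 3. Over the 3 classes of DLX fold it was 56.3%, 59.6% and 75.1%.

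**Figure D4:**
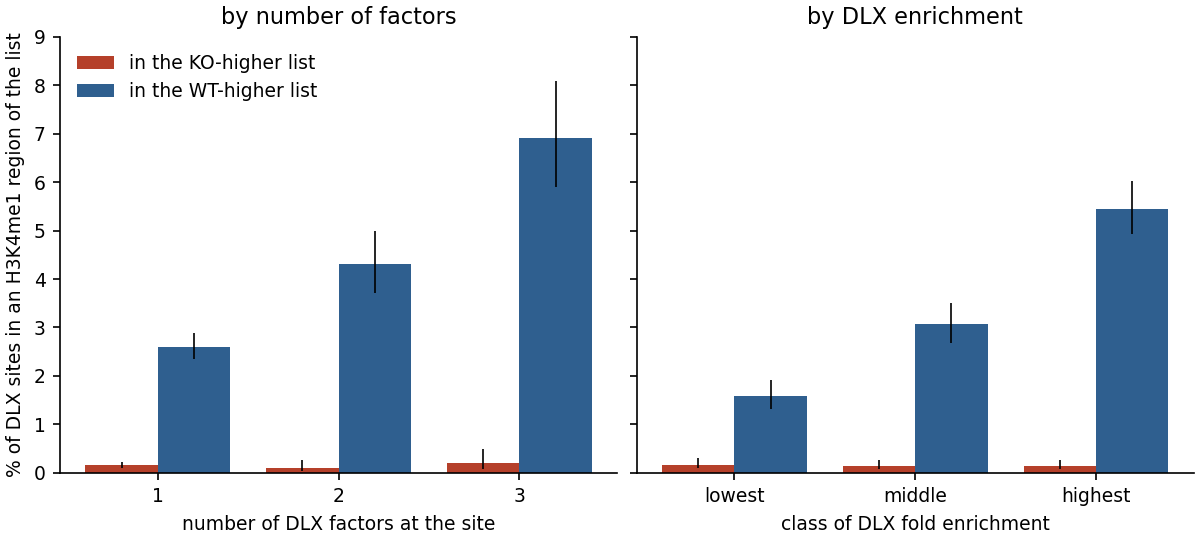
Share of DLX sites, in %, that lie in an H3K4me1 region of the authors' KO-higher list (red, left) or WT-higher list (blue, right), by the number of DLX factors at the site and by class of its highest DLX fold enrichment. Bars are shares of 19758 sites with 95% Wilson intervals; the WT-higher share goes up from 2.60% to 6.91% with the number of factors and from 1.59% to 5.45% with DLX enrichment, while the KO-higher share stays under 0.20%.

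Few of the authors' differential H3K4me1 regions overlapped a differential region of another mark. Of the KO-higher H3K4me1 regions, 46 overlapped a KO-higher (2.44%) and 6 a WT-higher H3K27ac region (0.32%) in the authors' deposited tables. Of the WT-higher H3K4me1 regions, 1 overlapped a KO-higher (0.034%) and 190 a WT-higher H3K27ac region (6.52%). Of the common ones, 421 overlapped a KO-higher (0.36%) and 446 a WT-higher one (0.38%). For H3K4me3 the counts were 40 KO-higher (2.12%) and 5 WT-higher (0.26%) in the KO-higher set. In the WT-higher set they were 5 KO-higher (0.17%) and 116 WT-higher (3.98%). Common H3K4me1 regions overlapped a KO-higher H3K4me3 region in 1235 cases (1.05%) and a WT-higher one in 253 (0.21%) in the authors' deposited tables. KO-higher H3K4me3 was thus also the more frequent where H3K4me1 was common. H3K27me3, the mark of Polycomb repression, was split, with 7 KO-higher (0.37%) and 4 WT-higher (0.21%) in the KO-higher set. The WT-higher set had 13 KO-higher (0.45%) and 14 WT-higher (0.48%), and the common set 184 (0.16%) and 99 (0.084%). From the other side, 188 of 695 WT-higher H3K27ac regions (27.1%) and 102 of 343 WT-higher H3K4me3 regions (29.7%) overlapped a WT-higher H3K4me1 region, while 44 of 538 KO-higher H3K27ac regions (8.18%) and 39 of 1643 KO-higher H3K4me3 regions (2.37%) overlapped a KO-higher one. Between 70.2% and 81.0% of the regions in these 4 H3K27ac and H3K4me3 lists overlapped a common H3K4me1 region.

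**Figure D5:**
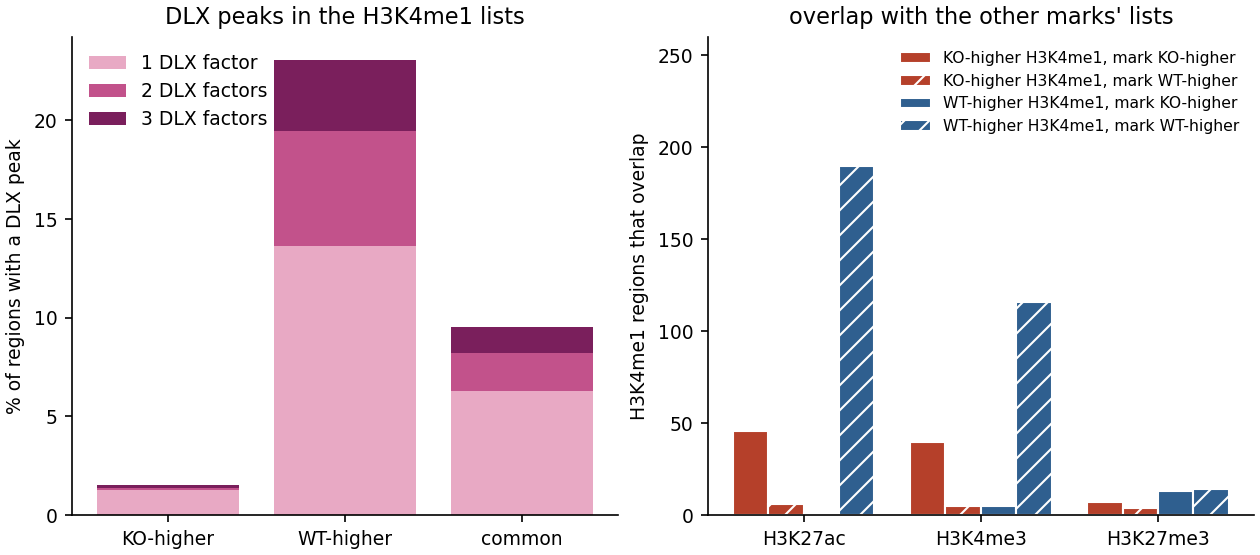
Left, share of the authors' KO-higher, WT-higher and common H3K4me1 regions, in %, that hold peaks of 1, 2 or 3 DLX factors, 1.54%, 23.1% and 9.52% in all. Right, number of KO-higher (red) and WT-higher (blue) H3K4me1 regions that overlap a KO-higher (plain) or WT-higher (hatched) region of another mark; the highest bar is the 190 WT-higher H3K4me1 regions with WT-higher H3K27ac, of 2916.

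Differential regions lay mostly outside WT H3K4me3 peaks. A WT H3K4me3 peak overlapped 12.8% of KO-higher and 7.27% of WT-higher H3K4me1 regions in the authors' deposited table, against 28.9% of common ones. Between 5 and 50 kb from such a peak lay 44.2% of KO-higher and 46.5% of WT-higher regions, against 37.5% of common ones.

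Some stretches of the genome held many differential regions. Of 2337 windows of 1 Mb, 5 held 10 or more KO-higher and 12 held 10 or more WT-higher regions of the authors' deposited table, with medians of 0 and 1 per window. The KO-higher regions were densest at chr2:71000001-72000000 with 27, followed by chr13:95000001-96000000 with 13 and chr2:51000001-52000000 with 11. The WT-higher regions were densest at chr2:158000001-159000000 with 25, chr2:77000001-78000000 with 23 and chr17:27000001-28000000 with 22. These WT-higher windows also held 20, 19 and 28 WT-higher and 0 KO-higher H3K27ac regions. H3K27me3 had 0, 18 and 19 WT-higher and 1, 0 and 0 KO-higher regions there. The window chr2:77000001-78000000 holds both WT-only runs named above and 46 DLX sites, and no KO-higher H3K4me1 region.

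Chromosome 2, which carries Dlx1 and Dlx2 in the RefSeq table (GRCm38.p6, used for chromosome names only), held 13.7% of the authors' KO-higher and 10.5% of their WT-higher regions, against 8.20% of common ones. Without it, 1.53% of KO-higher and 23.1% of WT-higher regions in the authors' deposited table held a DLX peak. Its window with most KO-higher regions also holds the highest-scoring WT-higher region of the list, chr2:71373965-71381374. Around that region no KO peak was listed for 16579 bp, at chr2:71368311-71384889, and a WT peak of fold 4.32 covered all of it. This was the gap between KO peaks with most WT-covered sequence out of 228242 gaps. H3K27ac, H3K4me3 and H3K27me3 each had a stretch of 15.3 to 15.6 kb there with 0 KO peaks, covered by 1 WT peak of fold 7.45, 14.6 and 8.56. A deleted sequence and a loss of all 4 marks cannot be told apart from peak lists, and the coordinates of the knockout allele were not analysed here.

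The reverse case lay close by. The gap between WT peaks with most KO-covered sequence, out of 222424, was chr2:71390644-71403306, where KO H3K4me1 covered all 12663 bp. The next 2 gaps between KO peaks were on chromosome 6, at chr6:6785220-6797651 with 12432 WT-covered bp and chr6:6770004-6784936 with 10659. They lie near the weak WT-only run at chr6:6751826-6763885. The RefSeq table places Dlx5 and Dlx6, which the DLX factors are known to regulate, on chromosome 6. With no mm9 annotation used, none of these stretches is assigned to a gene. In RNA, Dlx6 had 1.97 to 2.62 CPM in the KO samples and 12.5 to 16.8 CPM in the WT samples, a log2 change of −2.67 ± 0.15 (SE; edgeR adjusted p = 7.67e-06), and Dlx5 had 0.36 to 0.73 CPM in KO and 4.72 to 6.67 CPM in WT. These 2 genes and the gaps were picked after their values were seen.

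RNA of the enzymes that write and erase H3K4 methylation did not pass the test in either direction. Of 14510 genes tested over 4 KO and 4 WT samples, 215 passed an edgeR quasi-likelihood adjusted p of 0.05 (1.48%), 85 higher in KO (0.586%) and 130 lower (0.896%). With the replicate number as a block 635 passed. Of 23 listed genes for H3K4 methylation, 0 passed with edgeR, with the block or with DESeq2. Over all 14510 genes 1116 had an unadjusted p under 0.05 in the edgeR fit, and 0 of the 23 listed genes did. Their median log2 change was −0.0021, beside −0.0027 over all genes, and ranged from −0.16 for Dpy30, a subunit shared by the methyltransferase complexes, to 0.12 for Setd1a, which mainly places H3K4me3.

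The main H3K4me1 writers were close in level. Kmt2c had 121, 117, 119 and 103 CPM in the KO samples, against 122, 127, 103 and 106 CPM in the WT samples. Kmt2d averaged 33.3 ± 6.44 CPM in KO and 31.9 ± 2.12 CPM in WT (SD, n = 4 each). Kdm1a, which demethylates mono- and dimethylated H3K4, averaged 350.4 ± 48.5 CPM in KO and 364.2 ± 51.99 CPM in WT (SD, n = 4 each). The KO and WT ranges overlapped for all 23 genes, and how often this holds over all genes was not counted. The SEs of the log2 changes of the 23 genes lay between 0.074 and 0.22. In simulated counts the test recovered 40% of 1.5-fold changes and 92.9% of 2-fold changes, so changes of 1.5-fold could be missed.

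The RNA held markers of the ganglionic eminence beside those of other cell types. All 10 listed markers of the ganglionic eminence were detected, and 5 of them, Dlx1, Dlx2, Gad1, Gad2 and Lhx6, were lower in KO with edgeR, and the summed level of all 10 was 407 to 480 CPM in KO and 706 to 731 CPM in WT. Markers of cortical glutamatergic neurons summed to 368 to 516 CPM in KO and 344 to 435 CPM in WT, with 0 of 4 past the test. Among them Neurod6 averaged 330 CPM in KO and 274 CPM in WT. Its WT mean was above that of every listed eminence marker, of which Gad2 was highest with 158 CPM. Of the 3 markers each for other cell types, 0 passed. Endothelial markers summed to 79.8 to 123 CPM in KO and 89.7 to 135 CPM in WT, and erythroid ones to 1413 to 2025 CPM in KO and 1661 to 1896 CPM in WT. Microglial markers summed to 17.9 to 32.4 CPM in KO and 16.2 to 32.1 CPM in WT, and mesenchymal ones to 23.1 to 43.6 CPM in KO and 21.2 to 36.5 CPM in WT. No marker listed was at 0. The part of these cell types in the H3K4me1 differences was not tested.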

How the data were processed

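The authors deposited 1 broad peak list per genotype for H3K4me1, with a fold enrichment, a −log10 p and a −log10 q for each peak. Per the submitters' processing notes, the build was mm9 and the tools included MACS2, deepTools, SAMtools and BWA 0.7.16a, and Trim Galore and STAR 2.4.2a. The sources used here do not state the input behind each call or the read depth of the ChIP libraries. The authors' differential lists carry a score per region, as deposited. RNA values are the authors' raw counts per gene as deposited, totalling 14444752 to 116989915 per sample.

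H3K4me1 and DLX peaks were used as deposited, and a WT H3K27ac or H3K4me3 peak counted from a −log10 q of 5. KO and WT peaks overlapping by 1 base were joined into regions; the width-weighted mean fold gave the log2 KO over WT ratio, and 1.5-fold was called. Peaks off chromosomes 1 to 19 (4975 KO, 4528 WT) were left out. Intervals are 95%. RNA was tested with edgeR 4.0.16 (quasi-likelihood, TMM, minimum count 10, Benjamini-Hochberg over all genes at 0.05), with DESeq2 1.42.0 as an alternative, in R 4.3.3; the rest used Python 3.11.15. Region joining and the RNA test were tested on simulated data. Same-numbered RNA samples deviated together (r 0.251 to 0.588 in 4 pairs), with r from −0.642 to 0.706 in the other 12 pairs. Yet KO sample 1 went more with WT sample 2 (0.517) than with WT sample 1 (0.251). KO sample 2 likewise went more with WT sample 1 (0.706) than with WT sample 2 (0.446). Samples 1 and 2 deviated together across genotypes, as did samples 3 and 4, so equal numbers do not single out pairs. A block by replicate number was run as an alternative only. The labels do not say that RNA samples came from separate embryos, so p-values measure the spread between these samples.

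Named regions are the 5 highest and 5 lowest ratios among shared regions strong in both genotypes and among those with 3 DLX factors, the 5 strongest one-genotype regions of each kind, and the windows and runs richest in differential regions. The regions, gene lists and rules were chosen with earlier results of these data known.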

Additional observations from a re-analysis of the deposited data

How the results depend on the processing

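Of 175 alternative values for 23 results, 119 were counted as the same, 44 as moved and 12, all from peaks, as changed in sign. For RNA the same meant an unchanged call, not a value within a spread. Genes that passed in neither fit could thus change sign within the 119, as Kmt2c did with log2 changes of −0.042 to 0.060. With H3K4me1 peaks of −log10 q of at least 2, and then of at least 5, KO-only regions were 13.8% and 18.7%, WT-only regions 11.0% and 9.87%, shared regions past 1.5-fold higher in KO 110 and 26, and those lower 199 and 44. The median log2 ratio then turned to 0.016 and 0.019, the length ratio was 0.049 and 0.040, and the marked minus unmarked difference turned to −0.021 and −0.038. The unmatched difference of 3 DLX factors from none turned from 0.0057 to −0.016 and −0.0025, and that of any factor from 0.016 to −0.0084 and −0.0021. The difference of 3 factors within levels was −0.038 and −0.012. A DLX peak lay in 1.07% and 7.10% of KO-only and 5.84% and 15.0% of WT-only regions. Within levels of enrichment the differences turned to −0.041 (marks), −0.059 (3 factors) and −0.041 (any factor), and within classes of region width, chosen after seeing the data, that of 3 factors was −0.024.

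KO-only and WT-only regions were 15.8% and 11.99% when overlap had to reach 0.5 of the shorter peak, 14.1% and 10.1% when peaks up to 500 bases apart were joined, and 10.4% and 15.2% at the WT floor, chosen after seeing the data. With the highest fold of a region the median was −0.020, the marks difference 0.023 and that of 3 factors within levels −0.049, and with 1 peak per genotype the median was −0.018. The marks difference was 0.031 with marks of any strength and 0.029 with marks of either genotype. With DLX peaks of −log10 q of at least 10 the difference of 3 factors turned to −0.015 and was −0.080 within levels, and DLX peaks lay in 0.045% of KO-only and 0.46% of WT-only regions; with the DLX summit inside the region these were 0.092% and 0.98%. Authors' regions with a score of at least 5 numbered 467 KO-higher and 1617 WT-higher, with a DLX peak in 27.9% of the WT-higher; with 0.5 of the DLX peak's width overlapping, the shares were 0.900% of KO-higher and 15.8% of WT-higher regions. Why these values moved was not tested.

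With the replicate number of the RNA samples as a block, 0 of 23 enzymes passed and 1 had an unadjusted p under 0.05. Without each RNA replicate in turn 0 enzymes passed, and 142 to 184 of all genes did, against 471 with DESeq2. The calls on Dlx1, Dlx2, Kmt2c, Kmt2d and Kdm1a did not change under the block, and other single genes were not run. The limit of all H3K4me1 values is 1 library per genotype of unknown depth, with different lowest folds in the lists.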
